A study of Homo sapiens with 9 samples.

Results

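Low-attachment culture with FP001 was set against ordinary attached culture in A549 cells, an established human lung adenocarcinoma line, after 5 days. The members of the comparison were 5 of the 9 arrays of the series, chosen by their titles: FP001 replicates 1, 2 and 3 and attachment replicates 2 and 3. In every group A549 cells were kept in 96-well plates in DMEM with fetal bovine serum. The FP001 group was on low-attachment plates, on which cells are hindered from spreading, with FP001 at 0.015% w/v; the attachment group was on ordinary plates with Milli-Q water in place of FP001. A further group of 3 arrays, low-attachment plates with Milli-Q water (called normal medium), differed from the FP001 group in the additive. Plate and additive therefore differed together in the comparison with attachment, and their shares in it cannot be told apart there. What FP001 is was not given in the sources used here, and it is written by its code name. The labels describe 1 cell line and do not say whether replicates were separate cultures. The p-values therefore measure the spread between arrays of a group, the normal-medium group included, which may be technical.

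Adherent epithelial cells read their substrate through integrins, which gather talin, tensin, zyxin and kinases at focal adhesions and pass signals to the actin cytoskeleton and to the MAP kinase ERK. ERK acts on immediate early genes such as EGR1 and FOS, which are switched on within minutes by serum and adhesion, and tension on actin feeds the transcription factors SRF, YAP and TAZ. Cells kept off a substrate usually gather into clusters held by cell-cell junctions, and the inner cells of a cluster can meet less oxygen and fewer nutrients. A549 cells are of alveolar type but also make plasma proteins usual for liver.

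The values were the deposited array intensities, in arbitrary units, compared on the log2 scale. Attachment replicate 1 was left out because its highest rank correlation with any other array was −0.00191, and 1 of 86 pairs of probe sets that carried the same value on each other array did so there. The other 8 arrays had median intensities of 23.3 to 24.1. The rank correlation was 0.984 between the attachment arrays, 0.978 to 0.983 among the FP001 arrays and 0.961 to 0.976 between these groups. A gene was tested where its probe set reached the array median on at least 3 of the 8 arrays, which held for 10916 of 14884 named genes. Of these, 229 were under the median on both attachment arrays and passed through the low-attachment arrays alone, so a called change could hardly be a fall; 55 of the 229 rose and 0 fell. In the other direction, 37 named genes at the median on both attachment arrays and on no low-attachment array were not tested. Per-array intensities are in replicate order. Changes are log2 fold changes (FP001 minus attachment), 3 against 2 arrays, ± limma's standard error. The spread behind that error was estimated within the groups of all 8 arrays, those in normal medium included. Limma drew it toward the trend over all genes. A gene rose or fell where limma's test with Benjamini-Hochberg adjustment over the 10916 genes gave an adjusted p under 0.05.

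Of the 10916 genes, 882 rose (8.08%) and 1244 fell (11.4%), 19.5% in all. Each count for a list or family below is to be read beside these shares. At least 2-fold rises numbered 72 (0.66%), and at least 2-fold falls numbered 134 (1.23%). Non-overlapping arrays were common. All FP001 arrays were above both attachment arrays in 2895 genes (26.5%) and below both in 2865 (26.2%). For the largest changes named next, non-overlap was a condition of the choice and adds no evidence. Among called genes whose arrays did not overlap, the largest rises were in CEACAM6, KRT20, AGR3, CEACAM5, TPPP3, VSIG1, LYZ, CD22, KRT4, NOX1, MATN2 and VTCN1. Of these, CEACAM6, CEACAM5, VSIG1 and CD22 were on the list of surface glycoproteins of mucosal epithelium. AGR3 and LYZ were on that of secreted mucosal proteins, and both were under the median on both attachment arrays. The largest falls were in EGR1, MIR21, VCAN, MIR3189, MIR590, NNMT, PRG4, BAAT, MIR548H2, TNS4, FBN2 and FOS, which include immediate early factors, matrix proteins and microRNA genes. Rises made up 41.5% of the calls, against 56.2% after quantile normalization and 51.3% after centring on the array median, so the balance of rises and falls depended on the scaling. The median change over all genes was 0.018, and the scalings moved it by less than 0.1. Without attachment replicate 2, 318 genes rose and 342 fell, and without attachment replicate 3, 360 rose and 746 fell. Without FP001 replicate 1, 467 rose and 811 fell, and without FP001 replicate 2, 535 rose and 800 fell. Counts are given without an array where that moved them by over 1.5 times; for lists this was done, also for the 2 other scalings, where a count was or became at least 3.

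**Figure D1:**
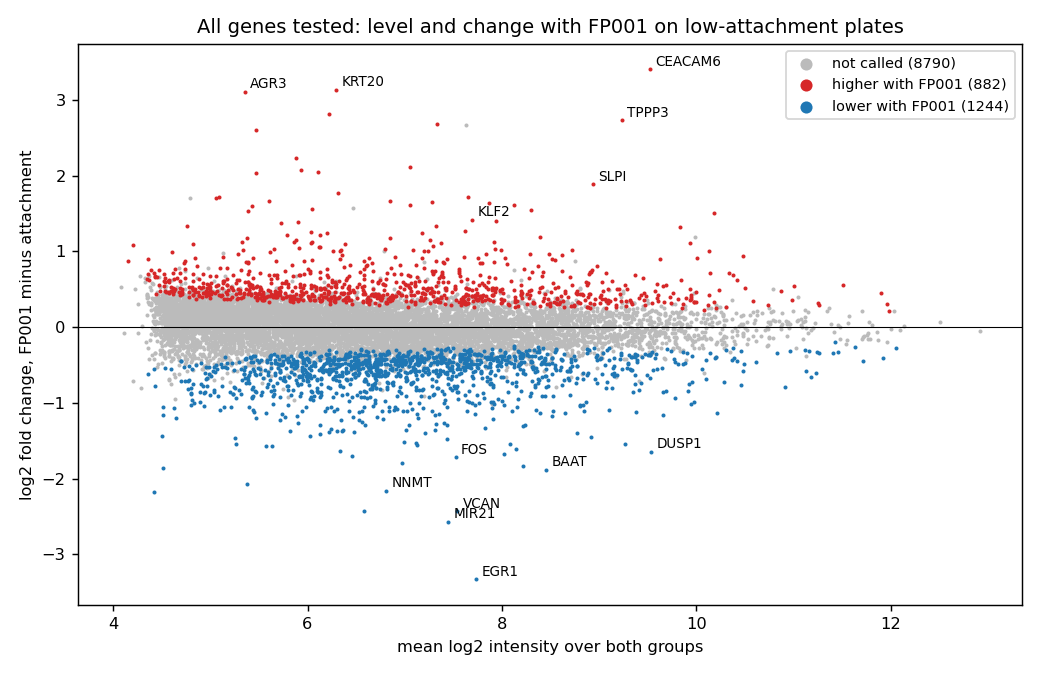
Each point is 1 of the 10916 genes tested, placed by its mean log2 intensity over the attachment and FP001 groups (horizontal) and its log2 fold change, FP001 minus attachment (vertical). Red points are the 882 genes that rose, blue points the 1244 that fell and grey points the rest; CEACAM6 lies at 3.40 and EGR1 at −3.33.

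**Figure D2:**
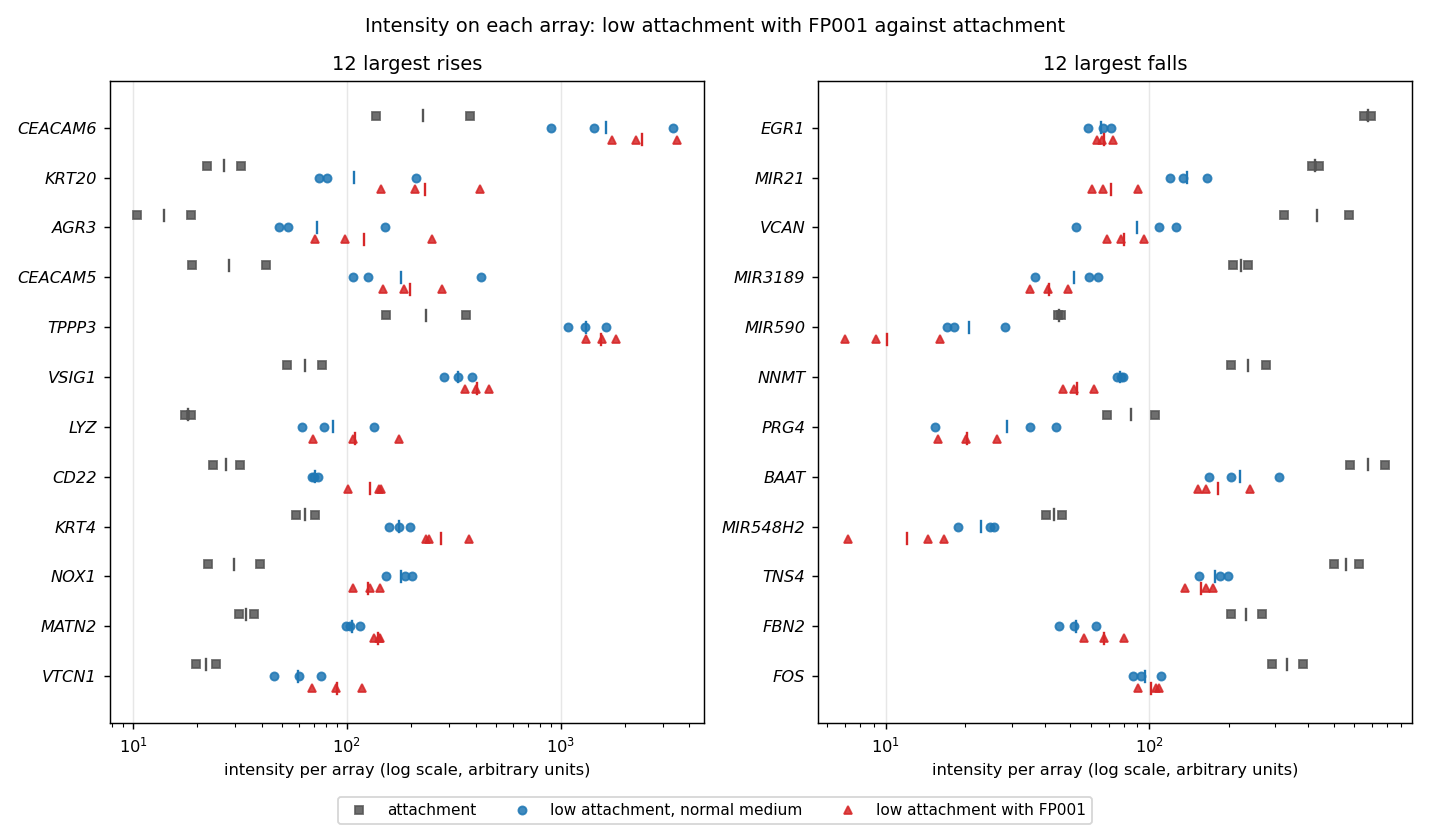
Deposited intensity on each array (log axis, arbitrary units) of the 12 largest rises (left) and the 12 largest falls (right). Grey squares are attachment, blue circles low attachment in normal medium, red triangles low attachment with FP001, and the short bars are geometric means. In each of the 24 genes the FP001 and attachment arrays do not overlap, which was a condition for choosing them.

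The list of surface glycoproteins of mucosal epithelium held the largest of the rises named above. CEACAM6, a glycoprotein that bridges neighbouring epithelial cells, read 375.6 and 137.0 on the attachment arrays and 3502.2, 1739.9 and 2259.4 on the FP001 arrays. The FP001 arrays were each higher than both attachment arrays, which themselves differed from each other, and the change was 3.40 ± 0.52 (adjusted p = 0.00203). CEACAM5, the carcinoembryonic antigen of the same family, read 42.0 and 18.9 on the attachment arrays and 279.8, 148.4 and 185.4 on the FP001 arrays and changed by 2.81 ± 0.53 (adjusted p = 0.00561). VSIG1, a junctional immunoglobulin-domain protein of gastric epithelium, read 76.8 and 52.5 on the attachment arrays and 464.0, 358.7 and 403.8 on the FP001 arrays, with close replicates in both groups, a change of 2.68 ± 0.17 (adjusted p = 3.16e-05). CD22, best known as a lectin of B cells that binds sialic acid, read 23.7 and 31.5 on the attachment arrays and 101.7, 141.8 and 144.9 on the FP001 arrays, and changed by 2.23 ± 0.17 (adjusted p = 6.42e-05). Of 12 tested surface glycoproteins of mucosal epithelium, 6 rose and 1 fell, with a median change of 0.48 beside 0.018 over all genes. This list, which includes CD22, was drawn up like the others with earlier results of these data known. Its counts are therefore a description and no independent support. These are bulk samples, in which fewer cells of a type and less RNA per cell cannot be told apart. CEACAM5 lost its call without attachment replicate 3 (adjusted p = 0.0587). CEACAM6 moved to 4.13 without attachment replicate 2 and 2.67 without attachment replicate 3.

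Secreted mucosal proteins moved in 1 direction among those called: 9 of 13 rose and 0 (0 at an unadjusted p under 0.05) fell, with a median of 0.91. AGR3, a disulfide isomerase of mucus-secreting cells, read 18.6 and 10.4 on the attachment arrays and 249.5, 70.9 and 98.1 on the FP001 arrays. Its change was 3.11 ± 0.55 (adjusted p = 0.00449), and FP001 replicate 1 was the highest array. LYZ, the antibacterial enzyme lysozyme, read 18.6 and 17.5 on the attachment arrays and 175.2, 69.8 and 106.7 on the FP001 arrays and changed by 2.60 ± 0.36 (adjusted p = 0.00124). SLPI, which inhibits leukocyte elastase on mucosal surfaces, read 283.9 and 227.6 on the attachment arrays and 1232.0, 879.6 and 767.5 on the FP001 arrays, a change of 1.89 ± 0.18 (adjusted p = 0.000243). TFF1, a trefoil peptide of gastric mucus, changed by 1.66 ± 0.25 (adjusted p = 0.00187). AGR3, LYZ and a further secreted protein were under the median on both attachment arrays and passed the filter through the low-attachment arrays alone; of the 10 others 6 rose and 0 fell. In SLPI and LYZ the attachment arrays stood close together and apart from the FP001 arrays.

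Genes of intestinal and gastric differentiation rose in 8 cases and fell in 2 of 18, median 0.39. KRT20, a keratin of gut surface cells, read 31.9 and 22.1 on the attachment arrays and 420.3, 143.8 and 207.9 on the FP001 arrays and changed by 3.13 ± 0.47 (adjusted p = 0.00186). TM4SF4, a membrane protein of gut and liver, rose from a geometric mean of 689.5 to 1955.1, a change of 1.50 ± 0.22 (adjusted p = 0.00167). ANPEP, the brush-border aminopeptidase, went the other way with −0.63 ± 0.15 (adjusted p = 0.0145). Of 20 keratins tested, 6 rose and 0 (1 at an unadjusted p under 0.05) fell. KRT4, a keratin of stratified mucosa, read 57.6 and 71.1 on the attachment arrays and 371.4, 235.2 and 241.7 on the FP001 arrays and changed by 2.11 ± 0.19 (adjusted p = 0.000153); KRT19, a keratin of simple ducts, changed by 1.55 ± 0.22 (adjusted p = 0.00135); and KRT15, a basal-cell keratin by 1.10 ± 0.19 (adjusted p = 0.00349). KRT15 and 1 more of the rising keratins were under the median on both attachment arrays; of the other 18 keratins 4 rose. Among the 19 genes with TSPAN symbols, 5 rose and 2 fell; TSPAN8, a tetraspanin of digestive epithelium, changed by 1.67 ± 0.29 (adjusted p = 0.0039) and TSPAN4 by 0.82 ± 0.14 (adjusted p = 0.00372); 1 of the 5 rises was under the median on both attachment arrays. VTCN1, an immune checkpoint ligand of epithelial surfaces, read 24.4 and 19.6 on the attachment arrays and 118.3, 68.4 and 89.3 on the FP001 arrays, and the groups did not overlap. MATN2, a filament-forming matrix protein, read 31.2 and 36.6 on the attachment arrays and 134.7, 143.7 and 141.8 on the FP001 arrays and changed by 2.05 ± 0.11 (adjusted p = 9.02e-06). ANPEP lost its call without attachment replicate 2 (adjusted p = 0.136). The 8 rises among genes of intestinal and gastric differentiation became 3 to 4 without attachment replicate 2 or 3 or FP001 replicate 1 or 2. The 5 rises among tetraspanins became 2 to 3 without attachment replicate 2 or 3.

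Of 14 tested lung-type genes, 4 rose and 0 (0 at an unadjusted p under 0.05) fell, median 0.24. TPPP3, a tubulin-binding protein abundant in ciliated airway cells, read 360.3 and 152.2 on the attachment arrays and 1820.0, 1313.9 and 1561.4 on the FP001 arrays. The FP001 arrays lay close together and the attachment arrays were spread, and the change was 2.73 ± 0.30 (adjusted p = 0.000419). AQP3, a glycerol-conducting water channel of airway basal cells, changed by 1.24 ± 0.26 (adjusted p = 0.00863). Of the 19 lung markers with a named probe set, HOPX, AQP4, KRT5 and SFTPA1 were below the array median on each of the 8 arrays. Of the 4 genes that rose, 1 was under the median on both attachment arrays. AQP3 lost its call without attachment replicate 2 (adjusted p = 0.083). TPPP3 moved to 3.35 without attachment replicate 2 and 2.11 without attachment replicate 3. The 4 rises among lung alveolar and airway genes became 1 to 2 without attachment replicate 2 or 3 or FP001 replicate 1 or 2.

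The immediate early factors held the deepest fall. EGR1, a zinc-finger factor induced by serum and by ERK, read 694.0 and 654.0 on the attachment arrays and 65.8, 63.2 and 72.7 on the FP001 arrays. Both attachment arrays were about equally high and the 3 FP001 arrays about equally low, so EGR1 was 10-fold lower, −3.33 ± 0.11 (adjusted p = 1.35e-07). FOS, the partner of JUN in the AP-1 dimer, read 382.8 and 290.6 on the attachment arrays and 109.0, 90.5 and 106.1 on the FP001 arrays and changed by −1.72 ± 0.15 (adjusted p = 0.000144); a dimmer second probe set of FOS changed by −0.40. JUNB, another AP-1 subunit, read 446.6 and 479.2 on the attachment arrays and 142.7, 169.5 and 164.9 on the FP001 arrays and changed by −1.54 ± 0.17 (adjusted p = 0.000453). JUN itself read 192.2 and 230.8 on the attachment arrays and 102.8, 108.3 and 92.3 on the FP001 arrays, a change of −1.06 ± 0.13 (adjusted p = 0.000598). KLF2, a Krueppel-like factor better known for its response to flow in endothelium, went the other way and read 119.3 and 134.6 on the attachment arrays and 366.7, 312.0 and 337.2 on the FP001 arrays, a change of 1.41 ± 0.12 (adjusted p = 0.000144). Over the 20 tested genes of the immediate early list, 8 fell (EGR1, FOS, JUNB, JUN, FOSB, KLF10, IER5 and IER2) and 2 rose (KLF2 and JUND), with a median of −0.27. DUSP1, the nuclear phosphatase that switches off MAP kinases and is itself an early serum-response gene, read 1285.4 and 1346.3 on the attachment arrays and 403.5, 402.9 and 454.1 on the FP001 arrays. Its groups were far apart, a change of −1.65 ± 0.11 (adjusted p = 3.16e-05). Among the 18 tested genes of MAP kinase feedback 1 fell and 1 rose. The 8 falls among immediate early and stress transcription factors became 5 without attachment replicate 2 or 3. Among MAP kinase feedback genes the 1 rise became 4 under quantile normalization and 3 after centring.

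The 250 bases before the start of EGR1 and of DUSP1 are printed here because these had the lowest adjusted p among the early-response genes above and their promoters hold well-known response elements; they are RefSeq sequences on GRCh38.p14, 5′ to 3′ on the gene's strand, chr5:138465229-138465478 on the plus strand for EGR1 and chr5:172771196-172771445 on the minus strand for DUSP1. Capitals mark CArG boxes, the sites read by SRF, in EGR1, and the cAMP response element TGACGTCA in DUSP1.
EGR1: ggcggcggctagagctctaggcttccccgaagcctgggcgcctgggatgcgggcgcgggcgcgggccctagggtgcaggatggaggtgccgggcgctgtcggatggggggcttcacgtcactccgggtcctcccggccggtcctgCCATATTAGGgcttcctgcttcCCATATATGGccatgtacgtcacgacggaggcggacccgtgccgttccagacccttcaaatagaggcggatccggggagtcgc
DUSP1: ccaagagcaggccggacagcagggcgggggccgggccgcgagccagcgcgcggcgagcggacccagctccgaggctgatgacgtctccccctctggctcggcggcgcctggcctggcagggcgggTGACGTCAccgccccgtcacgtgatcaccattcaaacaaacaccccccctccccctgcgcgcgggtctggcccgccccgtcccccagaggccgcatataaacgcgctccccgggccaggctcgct
EGR1 held 2 CArG boxes, with first bases 105 and 83 bases before the start, and DUSP1 held none. Within the same 250 bases, 312 of 27305 promoters in the table (1.14%) and 89 of 8378 promoters of tested genes (1.06%) held a CArG box, and 482 (1.77%) and 218 (2.6%) held TGACGTCA, both strands searched. Of the 15 immediate early genes with a promoter in the table, 2 held a CArG box: 1 of the 7 that fell, 0 of the 2 that rose and 1 of the 6 that were not called. TGACGTCA was in 2 of the 15, 0 of the 7 that fell, 1 of the 2 that rose and 1 of the 6 not called; DUSP1 is not on that list. The AP-1 site TGANTCA was in 361 of the 8378 promoters of tested genes (4.31%) and in 0 of those 15 windows. A match is a description of these letters and was not tested for binding. Sites outside the 250 bases were not searched, so a window without a match does not show that the gene lacks the site.

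Several proteins that tie cells to matrix fell. Among 15 tested genes of integrins and focal adhesions, 7 fell and 0 (2 at an unadjusted p under 0.05) rose, with a median of −0.38. TNS4, a short tensin that binds integrin tails and the receptor MET, read 622.2 and 502.6 on the attachment arrays and 136.6, 163.8 and 173.7 on the FP001 arrays and changed by −1.83 ± 0.14 (adjusted p = 8.29e-05), with no overlap. TNS3, a tensin with a phosphatase-like domain, read 738.3 and 610.6 on the attachment arrays and 281.9, 319.9 and 338.9 on the FP001 arrays, a change of −1.10 ± 0.11 (adjusted p = 0.000276). BCAM, a receptor for laminin, read 560.7 and 492.9 on the attachment arrays and 346.9, 306.8 and 322.4 on the FP001 arrays and changed by −0.69 ± 0.10 (adjusted p = 0.00131). Of the 14 actin cytoskeleton and SRF target genes, 5 fell and 4 rose. CNN2, an actin-binding calponin, changed by −0.75 ± 0.08 (adjusted p = 0.000487) and by −0.38 at a dimmer probe set, and TPM1, a tropomyosin of stress fibres, by −0.79 ± 0.13 (adjusted p = 0.00319), while EZR, which links actin to the apical membrane, rose with 0.54 ± 0.07 (adjusted p = 0.00091). Of 13 genes on the YAP and TAZ list, 3 fell and 1 rose; WWC1, a scaffold that feeds back on the Hippo kinases, changed by −1.16 ± 0.10 (adjusted p = 0.000144) and AJUBA, a LIM protein of junctions, by −0.79 ± 0.11 (adjusted p = 0.00136). The 7 falls among integrin and focal adhesion genes became 3 without attachment replicate 3. The 4 rises among actin cytoskeleton genes and SRF targets became 1 to 2 without attachment replicate 2 or 3, normal-medium replicate 2 or FP001 replicate 1, 2 or 3. The 5 falls among actin cytoskeleton genes and SRF targets became 2 without attachment replicate 2.

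The matrix itself was mixed: 5 of 23 matrix proteins fell and 3 rose, median −0.09. VCAN, a large chondroitin sulfate proteoglycan, read 572.4 and 325.1 on the attachment arrays and 78.1, 95.5 and 68.9 on the FP001 arrays. All 3 FP001 arrays were under both attachment arrays, a change of −2.43 ± 0.34 (adjusted p = 0.00127). FBN2, a fibrillin of elastic microfibrils, read 267.6 and 203.7 on the attachment arrays and 56.4, 67.2 and 79.9 on the FP001 arrays and changed by −1.80 ± 0.18 (adjusted p = 0.000276). IGFBP7, a secreted insulin-like growth factor binding protein, read 406.5 and 532.3 on the attachment arrays and 147.2, 144.8 and 143.4 on the FP001 arrays and changed by −1.68 ± 0.15 (adjusted p = 0.00016). PRG4, the lubricant proteoglycan of joints, changed by −2.07 ± 0.39 (adjusted p = 0.00543). Of 18 matrix-modifying enzymes and inhibitors, 3 fell and 0 (0 at an unadjusted p under 0.05) rose. HAS2, which makes hyaluronan, read 205.9 and 123.4 on the attachment arrays and 55.8, 40.1 and 52.0 on the FP001 arrays and changed by −1.71 ± 0.22 (adjusted p = 0.000852); ADAM19, a membrane protease that sheds neuregulin, changed by −1.37 ± 0.18 (adjusted p = 0.000928). PRG4 lost its call without attachment replicate 2 (adjusted p = 0.0713). The 3 rises among extracellular matrix proteins became 1 without attachment replicate 3. The 5 falls among extracellular matrix proteins became 3 without attachment replicate 2.

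Cell-cell junction genes moved both ways, with 7 rises and 4 falls among 28, median 0.13. DSC2, a desmosomal cadherin, read 75.3 and 69.3 on the attachment arrays and 148.4, 117.4 and 144.6 on the FP001 arrays and changed by 0.91 ± 0.12 (adjusted p = 0.000954). CLDN2, a claudin that forms cation pores, changed by 0.82 ± 0.13 (adjusted p = 0.00204) and TJP3, a tight junction scaffold, by 0.84 ± 0.12 (adjusted p = 0.00151). DSP, which anchors desmosomes to keratin, read 907.4 and 712.1 on the attachment arrays and 265.2, 462.1 and 432.0 on the FP001 arrays and changed by −1.10 ± 0.23 (adjusted p = 0.00892), so 2 proteins of the same structure moved in opposite directions. On the mesenchymal list 1 of 10 rose and 0 (2 at an unadjusted p under 0.05) fell. DSP lost its call without attachment replicate 2 (adjusted p = 0.0965). The 7 rises among cell-cell junction genes became 4 without attachment replicate 3. The 4 falls among cell-cell junction genes became 1 without attachment replicate 2.

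Receptors for growth factors moved both ways, with 6 falls and 3 rises among 27 and a median of 0.05. At an unadjusted p under 0.05, 8 fell and 7 rose. EGFR, the receptor of epidermal growth factor, read 497.3 and 498.8 on the attachment arrays and 201.2, 252.4 and 230.0 on the FP001 arrays and changed by −1.13 ± 0.12 (adjusted p = 0.000386). IGF1R, the receptor of insulin-like growth factor 1, read 561.6 and 523.3 on the attachment arrays and 230.2, 252.4 and 276.1 on the FP001 arrays and changed by −1.10 ± 0.13 (adjusted p = 0.000507). OSMR, a receptor subunit for oncostatin M, changed by −0.98 ± 0.13 (adjusted p = 0.000854). In these receptors the FP001 arrays were each below both attachment arrays. Genes of the list of cytokines, chemokines and the NF-kB response fell in 5 and rose in 2 of 28 cases; VEGFC, a lymphatic growth factor, changed by −1.19 ± 0.19 (adjusted p = 0.00255). The Notch ligand JAG1 read 521.7 and 670.2 on the attachment arrays and 235.1, 294.4 and 286.6 on the FP001 arrays and changed by −1.13 ± 0.17 (adjusted p = 0.00213), while 2 other Notch genes rose among the 29 tested. Wnt genes were split, with 5 rises and 5 falls of 26. The receptor FZD2 changed by −1.29 ± 0.11 (adjusted p = 0.000144), the R-spondin receptor LGR6 by 1.06 ± 0.13 (adjusted p = 0.000688) and the ubiquitin ligase RNF43, which removes Frizzled receptors, by 1.12 ± 0.19 (adjusted p = 0.00323). The 3 rises among growth factor receptors became 1 without attachment replicate 2 or 3 or FP001 replicate 2 or 3. The 5 falls among cytokines, chemokines and NF-kB response genes became 2 without attachment replicate 2. The 5 rises among Wnt pathway genes became 3 without attachment replicate 2 or 3 or FP001 replicate 1. The 5 falls among Wnt pathway genes became 2 without attachment replicate 2 or 3 or FP001 replicate 1. Among growth factor receptors the 3 rises became 5 under quantile normalization and 5 after centring.

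Plasma proteins usual for liver rose in 4 and fell in 2 of 18 cases, median 0.21. APOH, a phospholipid-binding plasma glycoprotein, changed by 0.93 ± 0.24 (adjusted p = 0.0227) and CP, the copper-carrying ferroxidase ceruloplasmin, by 0.62 ± 0.17 (adjusted p = 0.0292). In the other direction APOC1, a small apolipoprotein, changed by −1.03 ± 0.13 (adjusted p = 0.000992). Coagulation and complement genes fell in 7 and rose in 2 of 19. C5, the source of the anaphylatoxin C5a, read 1140.0 and 845.4 on the attachment arrays and 421.8, 459.1 and 473.9 on the FP001 arrays, with no overlap, and changed by −1.12 ± 0.12 (adjusted p = 0.000426). CFI, the protease that inactivates C3b, read 82.5 and 48.7 on the attachment arrays and 25.8, 21.6 and 21.5 on the FP001 arrays and changed by −1.47 ± 0.25 (adjusted p = 0.00331). PROS1, the anticoagulant protein S, changed by −0.79 ± 0.11 (adjusted p = 0.00133), and C3, the central complement component, by −1.10 ± 0.25 (adjusted p = 0.0148). FGG, the fibrinogen gamma chain, read 857.3 and 476.5 on the attachment arrays and 334.2, 255.7 and 359.1 on the FP001 arrays and changed by −1.03 ± 0.22 (adjusted p = 0.0109). APOH lost its call without attachment replicate 3 (adjusted p = 0.181) and without FP001 replicate 1 (adjusted p = 0.0583). CP lost its call without attachment replicate 3 (adjusted p = 0.223), without FP001 replicate 1 (adjusted p = 0.0793) and without FP001 replicate 2 (adjusted p = 0.0543). FGG lost its call without attachment replicate 2 (adjusted p = 0.101). C3 moved to −0.50 without attachment replicate 2 and −1.69 without attachment replicate 3. The 4 rises among plasma proteins of liver type became 0 to 2 without attachment replicate 3 or FP001 replicate 1. The 7 falls among coagulation, fibrinolysis and complement genes became 4 without attachment replicate 2.

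Hypoxia-response genes fell in 9 of 22 cases and rose in 1, median −0.31. ADM, a vasodilator peptide, read 172.1 and 159.7 on the attachment arrays and 86.2, 89.7 and 88.5 on the FP001 arrays and changed by −0.91 ± 0.13 (adjusted p = 0.00153); ANGPTL4, an inhibitor of lipoprotein lipase, changed by −0.98 ± 0.14 (adjusted p = 0.0014); VLDLR, a lipoprotein receptor, by −1.12 ± 0.10 (adjusted p = 0.000144); and BNIP3L, a mitophagy receptor, by −0.75 ± 0.09 (adjusted p = 0.000589). Glycolytic genes gave 1 fall among 11. Of 19 genes of the amino acid response run by ATF4, 10 fell and 0 (0 at an unadjusted p under 0.05) rose. CTH, which makes cysteine from cystathionine, changed by −0.93 ± 0.12 (adjusted p = 0.000954) and STC2, a secreted glycoprotein, by −0.86 ± 0.13 (adjusted p = 0.00207). Of 16 tRNA synthetases, 7 fell, with AARS1, which charges alanine, at −0.45 ± 0.08 (adjusted p = 0.00469). AARS1 lost its call without attachment replicate 2 (adjusted p = 0.0588). The 9 falls among hypoxia response genes became 5 without attachment replicate 2. The 10 falls among genes of the ATF4 response became 3 without attachment replicate 2. The 7 falls among tRNA synthetases became 0 to 4 without attachment replicate 2 or 3, normal-medium replicate 3 or FP001 replicate 1 or 2. Among tRNA synthetases the 7 falls became 4 under quantile normalization.

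Cytosolic heat shock genes fell in 10 of 15 cases and rose in 0 (0 at an unadjusted p under 0.05), median −0.34. HSPH1, a nucleotide exchange factor for HSP70, read 1256.6 and 1320.3 on the attachment arrays and 612.3, 787.0 and 774.4 on the FP001 arrays and changed by −0.84 ± 0.13 (adjusted p = 0.00238). HSPA2, an HSP70 protein, read 501.8 and 504.1 on the attachment arrays and 235.4, 270.7 and 303.8 on the FP001 arrays and changed by −0.91 ± 0.16 (adjusted p = 0.00362). The groups did not overlap in either gene. Of 15 p53 targets, 7 fell and 0 (0 at an unadjusted p under 0.05) rose, with SESN1, an antioxidant stress sensor, at −0.70 ± 0.10 (adjusted p = 0.00124), and the apoptotic protein BAX, which read 394.8 and 354.8 on the attachment arrays and 239.1, 239.8 and 255.5 on the FP001 arrays, at −0.61 ± 0.12 (adjusted p = 0.00585). APAF1, the apoptosome scaffold, changed by −0.71 ± 0.12 (adjusted p = 0.00285). It is on the list of the BCL2 family and death receptors, where 3 of 20 tested genes fell and 2 rose, median −0.03. Counts of that list without an array are not given here. Endoplasmic reticulum folding genes gave 2 rises and 1 fall among 15. BAX lost its call without attachment replicate 2 (adjusted p = 0.0696). The 10 falls among cytosolic heat shock genes became 5 to 6 without attachment replicate 2 or 3. The 7 falls among p53 targets became 1 to 4 without attachment replicate 2 or FP001 replicate 2.

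Few cell-division genes passed the test. Of 38 mitotic genes, 0 (1 at an unadjusted p under 0.05) rose and 0 (6 at an unadjusted p under 0.05) fell in limma's test; TOP2A, the topoisomerase of dividing cells and the brightest of them, read 1739.0 and 1966.2 on the attachment arrays and 1321.1, 1816.2 and 1598.6 on the FP001 arrays, and the groups overlapped. DNA replication genes rose in 3 of 27 cases, 11.1% called beside 19.5% over all genes. CCNE2, a cyclin that drives entry into S phase, read 37.1 and 48.9 on the attachment arrays and 91.1, 98.5 and 116.5 on the FP001 arrays and changed by 1.25 ± 0.14 (adjusted p = 0.000502). RRM2, a subunit of ribonucleotide reductase, read 234.6 and 373.3 on the attachment arrays and 523.9, 628.6 and 654.4 on the FP001 arrays and changed by 1.02 ± 0.19 (adjusted p = 0.00508). On the quiescence list 3 of 16 fell and 0 (1 at an unadjusted p under 0.05) rose. RRM2 lost its call without attachment replicate 2 (adjusted p = 0.0543). The 0 falls among mitotic genes became 1 to 6 without normal-medium replicate 1 or FP001 replicate 3. The 3 rises among DNA replication and S phase genes became 1 to 5 without attachment replicate 2 or normal-medium replicate 1. The 3 falls among cell cycle inhibitors and quiescence genes became 0 without attachment replicate 2. Among DNA replication and S phase genes the 3 rises became 5 under quantile normalization.

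Redox and conjugating enzymes held some of the larger changes. NOX1, an oxidase of gut epithelium that makes superoxide, read 39.3 and 22.5 on the attachment arrays and 142.8, 106.9 and 128.6 on the FP001 arrays, with no overlap, and changed by 2.08 ± 0.22 (adjusted p = 0.000314). On the NRF2 and redox list 7 of 24 rose and 0 (3 at an unadjusted p under 0.05) fell, among them OSGIN1, an oxidative stress growth inhibitor, at 0.80 ± 0.12 (adjusted p = 0.00182) and TALDO1, a pentose phosphate enzyme, at 0.52 ± 0.09 (adjusted p = 0.00399). NNMT, which methylates nicotinamide, read 275.9 and 203.3 on the attachment arrays and 61.5, 51.8 and 46.8 on the FP001 arrays and changed by −2.16 ± 0.15 (adjusted p = 3.16e-05). BAAT, which joins bile acids to glycine or taurine, read 786.2 and 575.4 on the attachment arrays and 240.5, 164.5 and 152.5 on the FP001 arrays and changed by −1.89 ± 0.25 (adjusted p = 0.00113). HSD11B2, which inactivates cortisol, read 57.9 and 56.2 on the attachment arrays and 120.4, 104.8 and 119.9 on the FP001 arrays and changed by 1.01 ± 0.10 (adjusted p = 0.000253). ELOVL2, which lengthens polyunsaturated fatty acids, changed by −1.48 ± 0.25 (adjusted p = 0.00314), and PNPLA2, a triglyceride lipase, by 0.51 ± 0.09 (adjusted p = 0.00481); the 32 genes of fatty acid and triglyceride metabolism gave 5 rises and 9 falls. STEAP1, a metalloreductase-like membrane protein, changed by −1.23 ± 0.20 (adjusted p = 0.00295). The 7 rises among NRF2 targets and redox genes became 4 without attachment replicate 3 or FP001 replicate 1. The 5 rises among fatty acid and triglyceride metabolism genes became 1 to 3 without attachment replicate 2 or 3 or FP001 replicate 1 or 3. The 9 falls among fatty acid and triglyceride metabolism genes became 3 to 5 without attachment replicate 2 or 3 or FP001 replicate 1, 2 or 3. Among NRF2 targets and redox genes the 7 rises became 11 under quantile normalization. Among fatty acid and triglyceride metabolism genes the 9 falls became 5 under quantile normalization and 5 after centring.

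Among other groups there were 8 rises and 4 falls of 35 lysosome and autophagy genes, 6 and 3 of 25 interferon-stimulated genes, and 5 and 2 of 24 annexins and S100 proteins. ANXA13, an intestinal annexin, read 703.7 and 470.4 on the attachment arrays and 1743.7, 1345.9 and 1255.1 on the FP001 arrays and changed by 1.32 ± 0.19 (adjusted p = 0.00144). B2M, the light chain of class I histocompatibility molecules, read 175.0 and 185.5 on the attachment arrays and 398.0, 277.2 and 314.0 on the FP001 arrays and changed by 0.86 ± 0.17 (adjusted p = 0.0066). In both genes each FP001 array was above both attachment arrays. B2M lost its call without attachment replicate 2 (adjusted p = 0.0641). The 8 rises among lysosome and autophagy genes became 1 to 4 without attachment replicate 2 or 3 or FP001 replicate 1. The 4 falls among lysosome and autophagy genes became 0 to 2 without attachment replicate 2 or 3, normal-medium replicate 2 or FP001 replicate 1 or 2. The 6 rises among interferon-stimulated genes became 2 to 3 without attachment replicate 2 or 3 or FP001 replicate 1. The 3 falls among interferon-stimulated genes became 1 without attachment replicate 2 or FP001 replicate 2. The 5 rises among annexins and S100 proteins became 2 to 3 without attachment replicate 2 or 3. Among lysosome and autophagy genes the 4 falls became 2 under quantile normalization. Among annexins and S100 proteins the 5 rises became 9 under quantile normalization.

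MicroRNA genes supplied 4 of the 12 largest falls. Probe sets named for microRNA genes are not taken here as a measure of the mature microRNA. Mature sequences of the 3 deepest falls are printed because 2 of them carry the same seed; they are from RefSeq on GRCh38.p14, 5′ to 3′, with bases 2 to 8 in capitals, at chr17:59841273-59841294 (miR-21-5p), chr7:74191213-74191234 (miR-590-5p), chr7:74191253-74191273 (miR-590-3p), chr19:18386570-18386594 (miR-3189-5p) and chr19:18386607-18386627 (miR-3189-3p), each on the plus strand.
miR-21-5p: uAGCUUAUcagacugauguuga
miR-590-5p: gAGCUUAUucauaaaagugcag
miR-590-3p: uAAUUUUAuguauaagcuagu
miR-3189-5p: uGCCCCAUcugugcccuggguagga
miR-3189-3p: cCCUUGGGucugaugggguag
The seed of miR-21-5p, AGCUUAU, is also that of miR-590-5p, and the other 3 arms each have a seed of their own.

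MIR21, an abundant microRNA gene of carcinomas, read 440.1 and 412.5 on the attachment arrays and 60.8, 66.6 and 90.7 on the FP001 arrays. Both attachment arrays were several times above each FP001 array, a change of −2.57 ± 0.17 (adjusted p = 3.16e-05). VMP1, the autophagy gene that surrounds MIR21 on the same strand, changed by 0.01 ± 0.07 (adjusted p = 0.944), so the gene around it was not called. MIR590 read 44.9 and 46.1 on the attachment arrays and 7.0, 9.2 and 16 on the FP001 arrays, with the FP001 arrays under the array median, and changed by −2.17 ± 0.31 (adjusted p = 0.0015), while the EIF4H gene around it, a helper of translation initiation, was at −0.06 ± 0.07 (adjusted p = 0.602). MIR3189 read 208.3 and 236.3 on the attachment arrays and 35.1, 41.1 and 49.2 on the FP001 arrays and changed by −2.42 ± 0.22 (adjusted p = 0.000153), and GDF15, the stress cytokine whose intron holds it, changed by −0.46 ± 0.13 (adjusted p = 0.0342). MIR548H2 read 40.5 and 46.7 on the attachment arrays and 7.2, 16.6 and 14.5 on the FP001 arrays and changed by −1.85 ± 0.30 (adjusted p = 0.0028). Of 397 microRNA genes tested, 35 rose and 31 fell, beside 8.08% and 11.4% over all genes. They were taken by MIR symbol and include long host transcripts with HG in the symbol. Among these, MIR210HG (−0.57) and MIR600HG (−0.52) are counted in the falls. Of the 324 with a hairpin position in the sequences used, 96 had a tested gene around them on the same strand. Surrounding genes with a MIR symbol of their own were not counted. Some share a surrounding gene: the 96 lie in 86 genes, of which 20.9% were called (7 rose and 11 fell). The 31 that fell include 7 in 6 such genes, of which 2 fell (AOPEP, around both MIR23B and MIR27B, and GDF15) and 4 were not called. Among the 35 that rose, 9 had one each, of which 1 rose, 2 fell and 6 were not called. GDF15 lost its call without attachment replicate 2 (adjusted p = 0.262), without FP001 replicate 1 (adjusted p = 0.0686) and without FP001 replicate 2 (adjusted p = 0.0969). The 35 rises among microRNA genes became 6 to 18 without attachment replicate 2 or 3 or FP001 replicate 1 or 2. The 31 falls among microRNA genes became 7 to 18 without attachment replicate 2 or 3 or FP001 replicate 2.

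**Figure D3:**
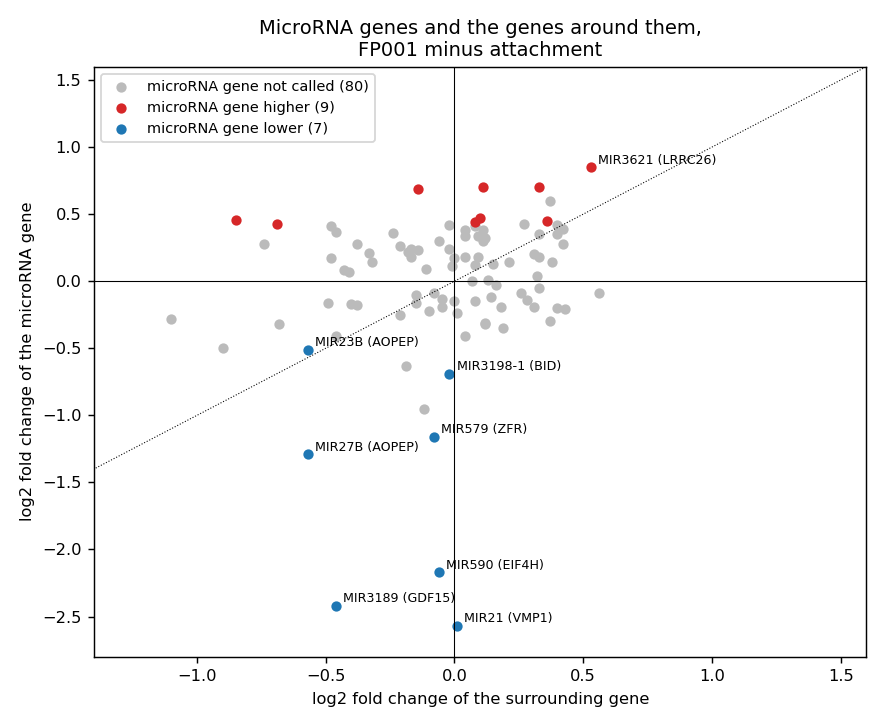
Log2 fold change, FP001 minus attachment, of the 96 microRNA genes with a tested gene around them on the same strand (vertical) against that of the surrounding gene (horizontal); the dotted line marks equal change. Blue points are the 7 microRNA genes that fell, red the 9 that rose and grey the 80 not called; MIR21 lies at −2.57 with VMP1 at 0.01.

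Long intergenic RNA genes rose in 13 and fell in 17 of 165 cases, 18.2% called beside 19.5% over all genes. LINC01133 read 21.6 and 15.8 on the attachment arrays and 99.5, 45.9 and 48.3 on the FP001 arrays and changed by 1.71 ± 0.31 (adjusted p = 0.00475), and LINC00842 read 140.5 and 198.4 on the attachment arrays and 69.2, 77.0 and 69.7 on the FP001 arrays and changed by −1.22 ± 0.18 (adjusted p = 0.0015). LINC01133 and 3 more of the 13 rises were under the median on both attachment arrays. Of 231 antisense RNA genes, 12 rose and 16 fell, 12.1% called and so under the 19.5% over all genes. PRKG1-AS1 was at −1.10 ± 0.16 (adjusted p = 0.00153) and TGFB2-AS1 at −1.05 ± 0.14 (adjusted p = 0.00117). The strand that these probe sets read was not given here, and signals of an antisense gene and its partner may not be separated. The 13 rises among long intergenic RNA genes became 5 to 8 without attachment replicate 2 or 3 or FP001 replicate 1 or 2. The 17 falls among long intergenic RNA genes became 5 without attachment replicate 2. The 12 rises among antisense RNA genes became 1 to 5 without attachment replicate 2 or 3 or FP001 replicate 1 or 2. The 16 falls among antisense RNA genes became 5 to 10 without attachment replicate 2 or 3 or FP001 replicate 1.

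Of 354 genes with ZNF symbols, most of them DNA-binding repressors, 79 fell and 4 rose, with a median of −0.14; under quantile normalization 66 fell and 11 rose, 11 rose after centring too, and 58.5% of all calls were falls. ZNF462 read 97.6 and 74.7 on the attachment arrays and 27.6, 28.0 and 30.7 on the FP001 arrays and changed by −1.57 ± 0.17 (adjusted p = 0.000438). ZNF449 changed by −1.18 ± 0.15 (adjusted p = 0.000815) and ZNF337 by −1.10 ± 0.12 (adjusted p = 0.000426). Of 31 genes with SRSF or HNRNP symbols, pseudogenes included, 12 fell and 0 (1 at an unadjusted p under 0.05) rose, with HNRNPH1, which binds G-rich splice elements, at −0.80 ± 0.14 (adjusted p = 0.00402). Of 39 lysine demethylases and methyltransferases of the KDM, KMT, SETD, NSD and EZH names, 11 fell and 0 (1 at an unadjusted p under 0.05) rose. KDM5B, which removes methyl groups from histone H3 lysine 4, read 433.2 and 365.5 on the attachment arrays and 178.5, 206.1 and 239.6 on the FP001 arrays and changed by −0.95 ± 0.13 (adjusted p = 0.00104); NSD1, a lysine 36 methyltransferase, changed by −0.61 ± 0.09 (adjusted p = 0.002). Nucleoporins fell in 4 of 22 cases, 18.2% called beside 19.5% over all genes, with NUP133 at −0.64 ± 0.10 (adjusted p = 0.00186). HNRNPH1 lost its call without attachment replicate 2 (adjusted p = 0.0528). The 4 rises among ZNF genes became 1 to 2 without attachment replicate 2 or 3 or FP001 replicate 1 or 2. The 79 falls among ZNF genes became 23 to 42 without attachment replicate 2 or 3. The 12 falls among SR and hnRNP splicing proteins became 3 to 5 without attachment replicate 2 or 3. The 11 falls among lysine demethylases and methyltransferases became 2 to 7 without attachment replicate 2 or 3, normal-medium replicate 3 or FP001 replicate 1 or 2. The 4 falls among nucleoporins became 2 without attachment replicate 2 or 3, normal-medium replicate 3 or FP001 replicate 1. Among lysine demethylases and methyltransferases the 11 falls became 6 under quantile normalization. Among nucleoporins the 4 falls became 2 under quantile normalization and 2 after centring.

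Ribosomal proteins of the cytosol fell in 10 and rose in 0 (1 at an unadjusted p under 0.05) of 51 cases, with RPL28 of the large subunit at −0.81 ± 0.11 (adjusted p = 0.00129), while those of mitochondria gave 3 rises and 2 falls of 77. The shares called were 19.6% and 6.49%, beside 19.5% over all genes. Respiratory chain genes gave 1 rise and 1 fall of 15, and cholesterol genes 1 and 0 (0 at an unadjusted p under 0.05) of 18. The 10 falls among cytosolic ribosomal proteins became 3 to 5 without attachment replicate 2 or 3 or FP001 replicate 1 or 2. The 3 rises among mitochondrial ribosomal proteins became 0 to 1 without attachment replicate 2 or 3 or FP001 replicate 2. Among mitochondrial ribosomal proteins the 3 rises became 7 under quantile normalization and 5 after centring.

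**Figure D4:**
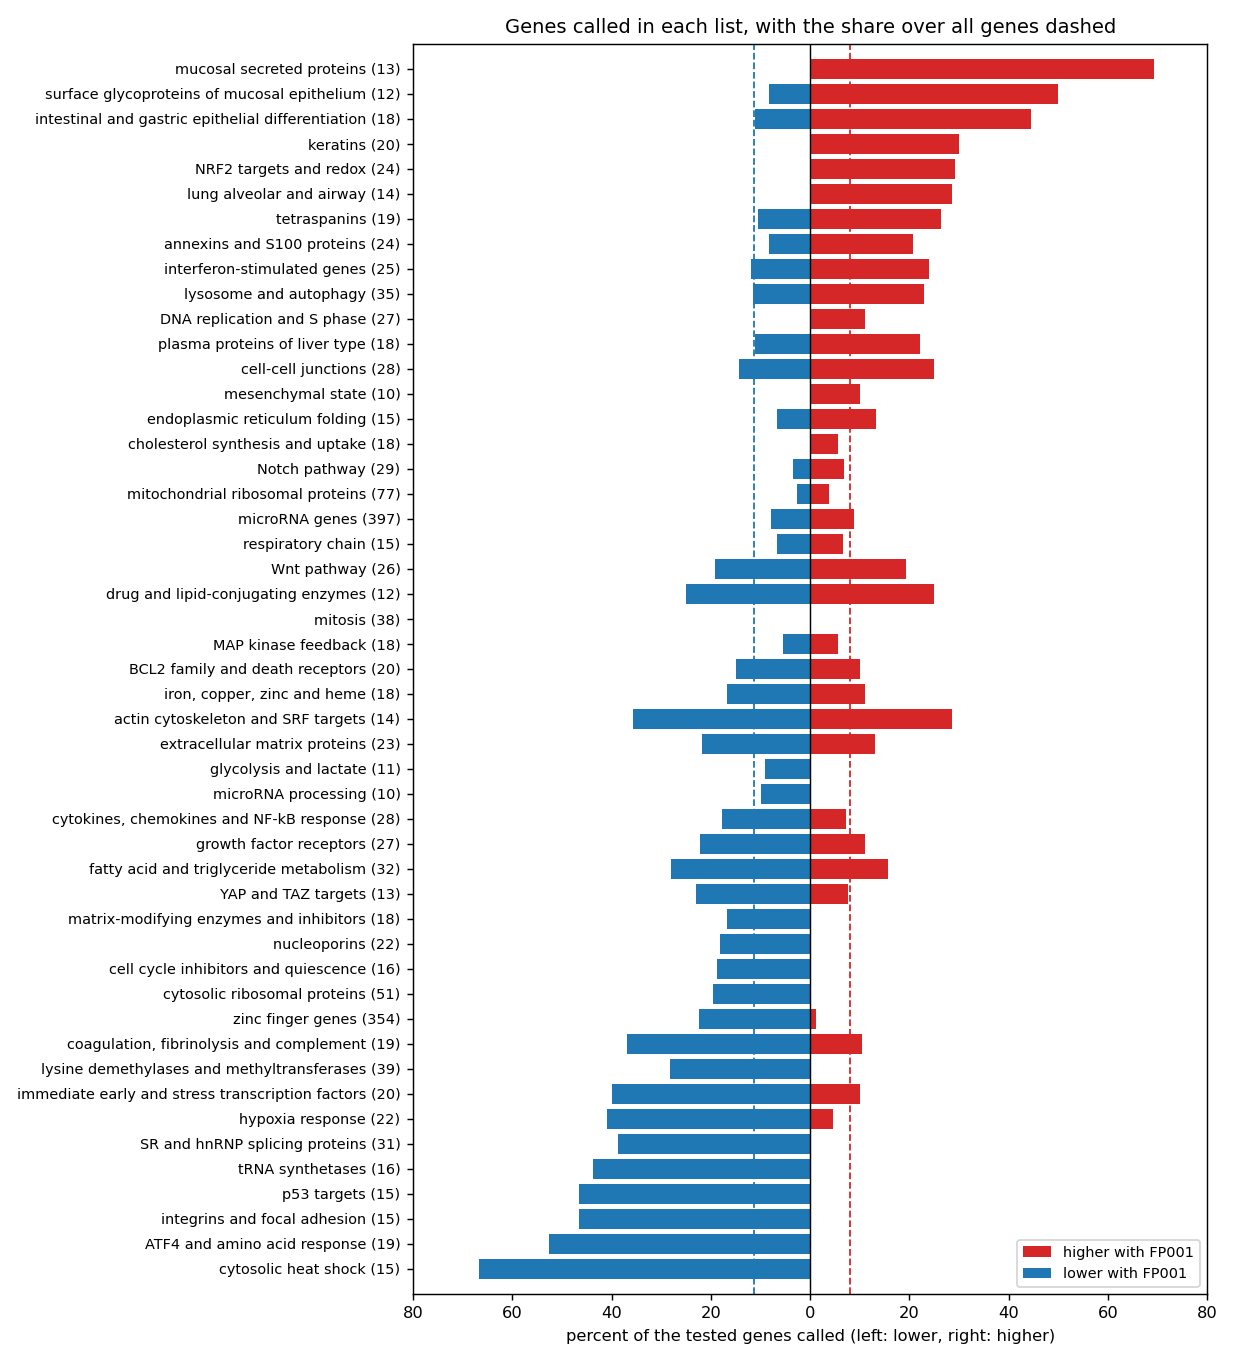
Percent of the tested genes of each list or family that rose (red, right) or fell (blue, left) with FP001 against attachment; the number tested is in parentheses and the dashed lines are the shares over all genes, 8.08% and 11.4%. Mucosal lists sit at the top and heat shock, ATF4, integrin and p53 lists at the bottom.

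Against low-attachment plates in normal medium, which differ from the FP001 group by the additive, far fewer genes differed. In the test of that difference 12 genes (0.11%) passed, 4 higher (0.0366%) and 8 lower (0.0733%) with FP001, and 1265 (11.6%) had an unadjusted p under 0.05. Arrays of the same number went together in these groups, and with the replicate number as a block 142 genes passed (50 higher and 92 lower), the 12 among them. Without FP001 replicate 1, 2 or 3 the test without the block called 0 genes, and without low-attachment replicate 2 or 3 in normal medium it called 1; without low-attachment replicate 1 it called 4 higher and 5 lower, and without limma's variance trend 0. The comparisons with attachment share the attachment arrays, so their values are given side by side only.

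Among the 4 higher genes JUN, the AP-1 subunit, read 58.3, 48.9 and 59.5 in normal medium and 102.8, 108.3 and 92.3 with FP001, 0.87 ± 0.11 (adjusted p = 0.0212). Its difference from attachment was −1.06 ± 0.13 with FP001 and −1.93 ± 0.13 in normal medium. GDF15 read 436.0, 384.8 and 513.4 in normal medium and 751.9, 699.7 and 806.2 with FP001, 0.77 ± 0.12 (adjusted p = 0.0455), and differed from attachment by −0.46 ± 0.13 and −1.22 ± 0.13. SNAR-H and SNAR-B1, small noncoding RNAs of a repeated, near-identical family whose signals may not be separated, were higher by 0.96 ± 0.11 (adjusted p = 0.0198), and by 0.73 ± 0.08 (adjusted p = 0.0198). SNAR-B1 read 1938.6, 2346.7 and 2473.6 in normal medium and 3759.3, 3610.9 and 3791.0 with FP001, beside 4227.7 and 4268.4 on the attachment arrays. JUN, GDF15, SNAR-B1 and SNAR-H thus lay nearer to their attachment level with FP001 than in normal medium.

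The 8 lower genes lay further from attachment with FP001, or, for AADACP1 and BCL9, on its other side. C5 read 855.7, 839.7 and 745.0 in normal medium and 421.8, 459.1 and 473.9 with FP001, −0.85 ± 0.11 (adjusted p = 0.0212); its differences from attachment were −1.12 ± 0.12 with FP001 and −0.27 ± 0.12 in normal medium. LENG8, a little-studied leukocyte receptor cluster gene, read 255.8, 198.5 and 248.4 in normal medium and 129.8, 141.5 and 154.7 with FP001, −0.72 ± 0.11 (adjusted p = 0.0455), against attachment −1.15 ± 0.12 and −0.43 ± 0.12. BCAM read 566.3, 494.5 and 527.6 in normal medium and 346.9, 306.8 and 322.4 with FP001, −0.70 ± 0.09 (adjusted p = 0.0203), against attachment −0.69 ± 0.10 and 0.01 ± 0.10. In normal medium BCAM differed from attachment by less than its standard error. BNIP3L read 1148.1, 1163.7 and 1244.8 in normal medium and 736.0, 745.3 and 771.8 with FP001, −0.66 ± 0.08 (adjusted p = 0.0198), against attachment −0.75 ± 0.09 and −0.09 ± 0.09. PROS1 differed by −0.65 ± 0.10 (adjusted p = 0.0455), the pseudogene AADACP1 by −0.65 ± 0.10 (adjusted p = 0.0455), LOC729737 by −0.53 ± 0.08 (adjusted p = 0.0455), and BCL9, a cofactor of beta-catenin, by −0.52 ± 0.08 (adjusted p = 0.0455). LOC729737 has 5 probe sets here, whose changes from attachment ran from −1.12 to 0.17, so its value is uncertain.

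**Figure D5:**
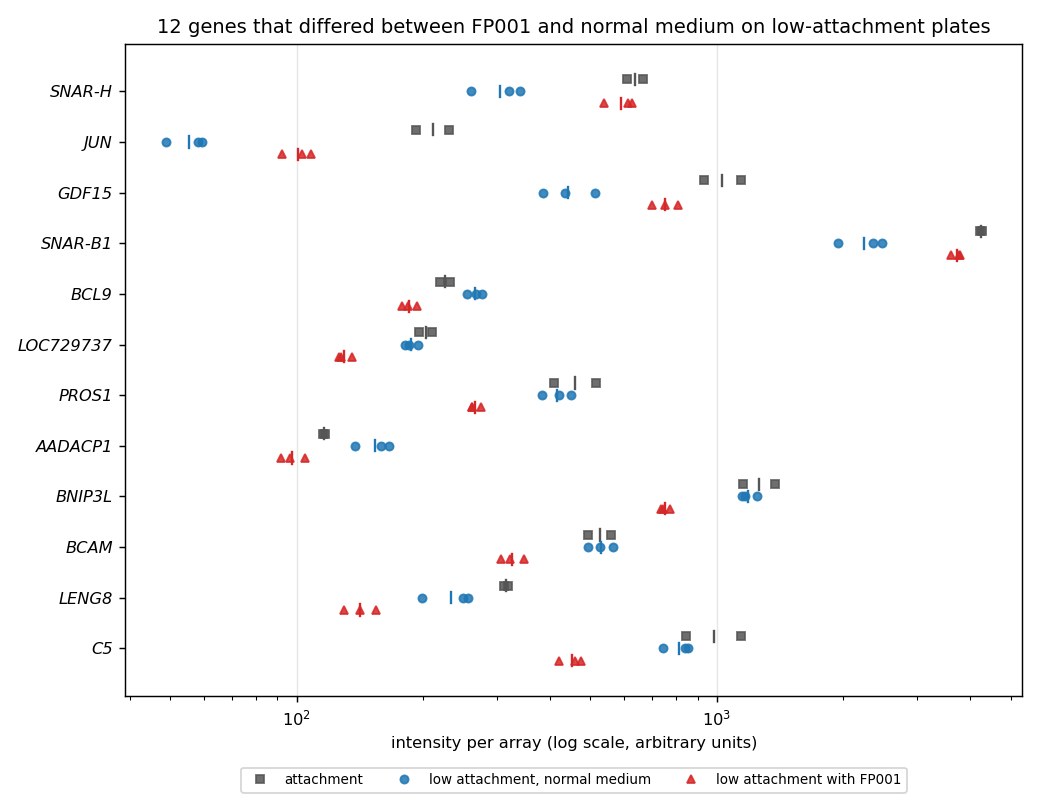
Deposited intensity on each array (log axis, arbitrary units) of the 12 genes that differed between FP001 and normal medium on low-attachment plates, ordered from the most higher with FP001 to the most lower. Grey squares are attachment, blue circles normal medium, red triangles FP001, and short bars geometric means. Blue and red do not overlap in any of the 12. These genes were chosen by the test of that same difference, so the lack of overlap adds no evidence. Its share over all genes was not counted for these groups.

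The difference between the media is given here for 9 of the 12 largest rises and 12 largest falls from attachment, picked without a set rule. None of the 9 passed without the block, while 3 passed with it, beside 142 of 10916 genes. Of those left out, NNMT differed by −0.55 ± 0.13 (adjusted p = 0.168) and MATN2 by 0.40 ± 0.10 (adjusted p = 0.171) without the block. The labels do not say that the numbers pair arrays, and in the blocked fit the attachment arrays carry numbers too. MIR21 read 133.6, 119.9 and 165.4 in normal medium and 60.8, 66.6 and 90.7 with FP001, lower with FP001 by −0.95 ± 0.15 (adjusted p = 0.0589), and the adjusted p was 0.0039 with the replicate block. KRT20 read 211.0, 74.5 and 81.2 in normal medium and 420.3, 143.8 and 207.9 with FP001, a difference of 1.10 ± 0.42 (adjusted p = 0.364), with 0.00647 as the adjusted p in the blocked fit; its arrays overlapped between media, but each FP001 array was above the normal-medium array of its number. CD22 read 73.2, 70.3 and 68.9 in normal medium and 101.7, 141.8 and 144.9 with FP001, a difference of 0.85 ± 0.15 (adjusted p = 0.0722), and the blocked adjusted p was 0.0129. EGR1 differed between media by 0.03 ± 0.10 (adjusted p = 0.926), and from attachment by −3.36 ± 0.11 in normal medium. CEACAM6 differed between media by 0.56 ± 0.47 (adjusted p = 0.688), VCAN by −0.16 ± 0.30 (adjusted p = 0.871), FOS by 0.08 ± 0.13 (adjusted p = 0.85), TNS4 by −0.18 ± 0.13 (adjusted p = 0.632) and NOX1 by −0.52 ± 0.19 (adjusted p = 0.354). A p that misses the threshold does not show that these genes were alike in both media; the standard error of CEACAM6 leaves room for a difference of 1 log2 unit.

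Markers were checked for the labelled line and for other cell types. The 5 epithelial markers with a named probe set had summed intensities of 4202.5 to 4358.9 on the attachment arrays and 5126.7 to 5685.7 with FP001, most of it from KRT18, a keratin of simple epithelium, which changed by 0.30 ± 0.06 (adjusted p = 0.00917). EPCAM, the epithelial adhesion molecule, read 252.0 and 216.3 on the attachment arrays and 206.1, 134.3 and 153.8 on the FP001 arrays and changed by −0.53 ± 0.16 (adjusted p = 0.042), and the median over the 5 was −0.06. EPCAM lost its call under 10 alternatives, with adjusted p from 0.0525 to 0.252, both other scalings among them. KRT18 lost its call with the mean of a gene's probe sets (adjusted p = 0.131) and without attachment replicate 2 (adjusted p = 0.0894). A dimmer second probe set of KRT18 changed by 0.04. The 3 fibroblast markers summed to 109.7 to 169.7 and 133.9 to 493.0, with DCN below the array median on each of the 8 arrays. Of the 2 fibroblast markers tested, 1 fell, by −0.51, and the other changed by 1.57 without being called. The 3 leukocyte markers summed to 434.8 to 515.8 and 595.4 to 818.0. Of these 3, 2 rose, by 0.42 and 0.74, and the other was at −0.12 and not called. The 4 endothelial markers summed to 87.1 to 99.1 and 107.8 to 135.8, with KDR below the array median on each of the 8 arrays. Lung markers summed to 907.5 to 1142.6 and 2274.3 to 2762.1. Within these sums TPPP3 alone read 360.3 and 152.2 on the attachment arrays and 1820.0, 1313.9 and 1561.4 on the FP001 arrays. The median change of the tested lung markers was 0.24. None of these markers was at 0 on every array. Whether cells of different states made up different shares of each culture was not tested, nor was the part of these markers in the results.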

How the data were processed

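RNA from A549 cells was measured on 9 single-colour Affymetrix arrays, labelled from 100 ng of total RNA per the labels' protocols. The authors deposited linear intensity values per probe set; the submitters' processing notes name MAS5, with no version or scaling given. The kit named in the labels is a 3′ IVT one, while the probe set numbers are of a kind used for whole-transcript arrays, which was not resolved. GEO's platform annotation gave 16098 of 53617 probe sets 1 symbol; 37519 are unnamed here. Symbols were updated through RefSeq.

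The log2 intensity was compared without further scaling. Named probe sets at or above the array median on at least 3 of 8 arrays were kept (11711), and the brightest per gene was used. One model of 3 group means was fitted with limma 3.58.1 in R 4.3.3 (variance trend, 5 residual and 5.6 prior degrees of freedom), Benjamini-Hochberg adjustment over 10916 genes and a threshold of 0.05, and was tested on simulated data. The number of arrays limits the precision. Same-numbered arrays of FP001 and normal medium correlated in their deviations from the group means at 0.483, 0.309 and 0.231. The main model did not use this pairing, which entered only the alternative fit with the replicate block. Same-numbered arrays of FP001 and attachment (−0.256 and 0.008) share a number only.

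The members, 43 gene lists and 26 families defined by symbol were chosen with earlier results of these data known. Named genes were the 12 largest rises and 12 largest falls whose arrays did not overlap, up to 4 called members per list or family (the brightest where none was called) and the genes called against normal medium. VMP1, EIF4H, FOSB, KLF10, IER5, IER2 and JUND fall outside that rule and were named after their values were seen. Alternatives were other scalings, filters, an added constant, the mean of probe sets, no variance trend, the 2 groups alone, a replicate block, all 9 arrays and each array left out.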

Additional observations from a re-analysis of the deposited data

How the results depend on the processing

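The counts of genes called against attachment stayed within 1.5 times of 882 rises and 1244 falls under both other scalings, both other filters, the added constant, the mean of probe sets, no variance trend and the fit of the 2 groups alone. The replicate block, where the numbers do not pair these arrays, gave 989 rises and 1378 falls. With 1 array left out the total ranged from 660 to 2305, the rises from 318 to 938 and the falls from 342 to 1367. With all 9 arrays, 0 genes were called in either comparison; attachment replicate 1 correlates with no other array. In that fit these named genes turned positive without passing the threshold (log2 fold change): AARS1 0.49, ADM 0.58, AJUBA 0.91, ANGPTL4 0.08, APAF1 1.25, BAAT 0.26, BAX 0.69, BCAM 0.90, BNIP3L 1.23, C3 0.55, C5 1.73, CFI 0.08, CNN2 1.22, CTH 0.51, DSP 0.13, EGFR 0.75, FGG 1.75, FZD2 0.16, GDF15 0.16, HAS2 0.07, HNRNPH1 0.13, HSPA2 0.55, HSPH1 1.80, IFT81 0.70, JAG1 0.92, JUN 0.40, LENG8 0.47, LINC00842 0.47, MT1F 1.03, OSMR 0.41, PROS1 0.69, VLDLR 0.43, WWC1 0.60, ZNF337 0.45 and ZNF449 0.51. Against normal medium, where 12 genes were called (4 higher and 8 lower), 0 were called without the variance trend, 7 were higher after centring, 5 were lower after quantile normalization, and 142 were called with the replicate block (50 higher and 92 lower). With 1 array left out these counts ranged from 0 to 11 in total, 0 to 4 higher and 0 to 8 lower. The causes were not tested. Named genes kept their sign against attachment under the other alternatives. The number of arrays, 3 against 2, and intensities near the array median limit what could be called; genes dim in attachment have the least certain folds.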

Other observations

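Metal-handling genes gave 2 rises and 3 falls among 18. MT1F, a metallothionein that binds zinc and copper, read 436.8 and 273.2 on the attachment arrays and 205.9, 150.5 and 146.3 on the FP001 arrays, each FP001 array under both attachment arrays, and changed by −1.06 ± 0.20 (adjusted p = 0.00523). Of 17 genes with CENP symbols, 3 rose and 0 (0 at an unadjusted p under 0.05) fell. CENPU, a subunit of the centromere complex that helps kinetochores form, read 89.8 and 106.3 on the attachment arrays and 169.0, 159.6 and 146.7 on the FP001 arrays and changed by 0.70 ± 0.12 (adjusted p = 0.00428). Of 147 genes with CEP, IFT, BBS or CCDC symbols, which include genes with no known tie to the centrosome, 22 fell and 10 rose. That is 21.8% called, beside 19.5% over all genes. IFT81, which carries tubulin along the growing cilium, read 302.6 and 284.0 on the attachment arrays and 126.4, 146.4 and 136.5 on the FP001 arrays and changed by −1.11 ± 0.11 (adjusted p = 0.000278), with no overlap between the groups. CENPU and MT1F lost their calls without attachment replicate 2 (adjusted p = 0.0568 and 0.0599). The 3 falls among iron, copper, zinc and heme genes became 1 to 5 without attachment replicate 2 or normal-medium replicate 1. The 3 rises among centromere proteins became 0 to 1 without attachment replicate 2 or 3 or FP001 replicate 1. The 10 rises among these genes became 2 to 6 without attachment replicate 2 or 3 or FP001 replicate 1, 2 or 3. The 22 falls among these genes became 3 to 14 without attachment replicate 2 or 3 or FP001 replicate 2.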
